A study of Mus musculus with 22 samples.

Results

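Induced mouse tissues with both copies of Brca1 or Brca2 deleted were compared with induced tissues that kept 1 intact copy. Members were chosen by the Brca genotype of each mouse, with no measured value used. Of the 22 samples of the series, 10 belonged here, 4 of them homozygous and 6 heterozygous for the deletion. The samples were doxycycline-induced fallopian tubes (FT) and metastatic tumors (M) from mice in which doxycycline switches on a conditional, Pax8-driven Cre in the epithelium of the tube. The homozygous FT samples were FT2 (Brca1 -/-) and FT4 (Brca2 -/-). The heterozygous FT samples, FT1, FT3 and FT5, were all Brca2 -/+. The homozygous M samples, M1 and M3, were both Brca2 -/-. Of the heterozygous M samples, M2 and M6 were Brca1 -/+ and M4 was Brca2 -/+, and the label of M6 names an ovarian tumor. Uninduced control tubes (CT) with floxed Brca alleles served as a background, with 3 carrying both Brca copies floxed and 2 carrying 1.

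Brca1 and Brca2 act in homologous recombination, the pathway that repairs double-strand DNA breaks from an intact copy, and loss of both copies of either gene leaves cells without it. The secretory cells of the tubal epithelium are regarded as a source of high-grade serous carcinoma, and the tube also holds ciliated cells. MicroRNAs (miRNAs) bind messenger RNAs mainly through their seed, bases 2 to 8 from the 5′ end, so that miRNAs with the same seed share many targets.

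Sequences of some of the miRNAs on which the comparisons turned are given first, as RefSeq lists them for the mouse assembly GRCm38.p6, with the seed in capitals. The 19 names listed here were all matched. No mature entry was found for miR-34c, miR-375, miR-532-5p, miR-2133 and miR-1196 under the names tried, so these are named without a sequence. The panel does not print its probe sequences, and a panel name without an arm was read as the arm that now carries it. The miR-200 family and miR-205, all but miR-141 of them called lower in homozygous M, are shown because the family falls into a pair of seeds that differ in 1 base. These miRNAs repress inducers of the mesenchymal state and mark epithelium.
miR-200a-3p: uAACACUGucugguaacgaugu
miR-141-3p: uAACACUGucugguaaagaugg
miR-200b-3p: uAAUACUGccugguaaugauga
miR-200c-3p: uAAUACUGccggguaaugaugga
miR-429-3p: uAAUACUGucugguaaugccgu
miR-205-5p: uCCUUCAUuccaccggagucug
Within the family miR-200a, miR-200b and miR-429 lie on chromosome 4 and miR-200c and miR-141 on chromosome 6. The arms of miR-34b, lower in homozygous FT, come from the miR-34b/c locus on chromosome 9, and miR-449a on chromosome 13 has the seed of miR-34b-5p. Both loci are known for their part in the making of multiciliated cells.
miR-34b-5p: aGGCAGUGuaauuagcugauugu
miR-34b-3p: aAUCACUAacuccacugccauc
miR-449a-5p: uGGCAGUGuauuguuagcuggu
The miR-29 family represses collagen and other matrix genes. Its members share 1 seed, and miR-29b was lower in homozygous FT.
miR-29a-3p: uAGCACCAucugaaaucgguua
miR-29b-3p: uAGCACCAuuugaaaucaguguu
miR-29c-3p: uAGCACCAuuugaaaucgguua
Of the miRNAs higher in homozygous samples with both tissues together, miR-1224, miR-2137, miR-674 and miR-351 are shown, and the seeds of these 4 all differ.
miR-1224-5p: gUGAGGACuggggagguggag
miR-2137: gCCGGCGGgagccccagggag
miR-674-5p: gCACUGAGaugggaguggugua
miR-351-5p: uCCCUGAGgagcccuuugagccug
miR-196b, from a Hox cluster on chromosome 6, and miR-127 and miR-382, from the imprinted Dlk1-Dio3 region on chromosome 12, differed between FT and M in the Brca contrast.
miR-196b-5p: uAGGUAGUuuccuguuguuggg
miR-127-3p: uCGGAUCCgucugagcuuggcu
miR-382-5p: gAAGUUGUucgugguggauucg

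The NanoString nCounter mouse miRNA assay counts 1 fluorescent barcode kind per miRNA, and 566 mouse miRNAs were measured. Total miRNA counts ranged from 70164 to 215577 in homozygous and from 74888 to 598321 in heterozygous samples. Counts were scaled to the 100 most abundant miRNAs in tissue through their geometric mean in each sample, and the scaled value is called the normalized count. The geometric mean was between 169 and 234 in homozygous samples and between 192 and 1332 in heterozygous ones, a difference of -1.39 on the log2 scale within tissues (exact permutation test of the Brca state within FT and within M, two-sided p = 0.04). The detection level of a sample, the mean plus 2 SD of its 8 negative controls, was accordingly higher on the normalized scale in homozygous samples, by 1.48 log2 in FT and by 1.11 in M. A miRNA at background in all samples would read higher in homozygous samples by about this much, and a level under it is not measured. The median log2 fold change of all 566 miRNAs was 0.81 in favor of homozygous samples, and with TMM scaling it was 0.02.

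With both tissues together, 16 miRNAs were higher in homozygous samples and none was lower (edgeR quasi-likelihood test with tissue as a covariate, Benjamini-Hochberg adjusted p below 0.05). Those 16 calls were 2.83% of the miRNAs tested. At an unadjusted p below 0.05, 117 were higher and 8 lower, but this split was 32 and 37 under TMM, 32 and 38 under median ratios and 41 and 33 after quantile normalization. The highest counts among the 16 were those of miR-1224, which is processed from a short intron. Also called were miR-2133, miR-2134, miR-2137 and miR-2140, panel entries of which several were later withdrawn as fragments of other RNAs. The others were miR-674, miR-1196, miR-351 (a relative of miR-125 by its seed), miR-294 (of a cluster known from embryonic stem cells), miR-467c, miR-450b-3p, miR-706, miR-1897-3p, miR-1969, miR-3471 and miR-673-5p. Their log2 fold changes lay between 2.03 and 3.81.

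The normalized count of miR-1224 was 2563 in FT2 and 239 in FT4, against 62.5 in FT1, 62.7 in FT3 and 43.6 in FT5. In M it was 13485 in M1 and 4075 in M3, against 495 in M2, 2712 in M4 and 750 in M6. In both tissues the homozygous samples were the highest, as was so for 7.42% of all miRNAs. The heterozygous FT samples were at the level of the CT samples, which read 42.4 to 71.3. miR-1224 was above detection in all 10 samples, and its log2 fold change was 3.75 (SE 0.89, edgeR adjusted p = 0.025). The exact permutation p was 0.01, the smallest that the 100 arrangements can give.

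miR-2133 read 68.7 in FT2 and 13.9 in FT4 against 3.82 to 6.48 in heterozygous FT, all under detection. In M it stood apart more clearly, with 2790 in M1 and 1311 in M3 against 168, 186 and 184 in M2, M4 and M6. The log2 fold change over both tissues was 3.32 (SE 0.73, adjusted p = 0.020).

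miR-2137 had the same pattern, with 1022 in M1 and 372 in M3 against 58.7, 70.1 and 59.4 in heterozygous M, and with 71.1 in FT2 and 25.8 in FT4 against 5.93 to 15.3 in heterozygous FT. The FT values were under detection. Its log2 fold change was 2.95 (SE 0.67, adjusted p = 0.020).

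miR-2134 was 11155 in M1 and 3378 in M3 against 116 in M2, 2175 in M4 and 73.7 in M6. In FT it was 614 in FT2 and 25.8 in FT4 against 6.54 to 23.8. The log2 fold change was 3.81 (SE 0.96, adjusted p = 0.033), and FT4, which was under detection, lay barely above the highest heterozygous FT sample.

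miR-2140 read 1308 in FT2 but 21.9 in FT4, inside the 19.5 to 29.4 of heterozygous FT. In M it was 1672 in M1 and 865 in M3 against 146 to 457. The FT part of this call thus came from FT2 alone, and without FT2 the log2 fold change within FT was -0.27.

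miR-674 was 216 in FT2 and 55.7 in FT4 against 22.3, 30.3 and 35.4 in heterozygous FT, and 393 in M1 and 127 in M3 against 51.2, 65.3 and 32.1 in heterozygous M. The groups did not overlap in either tissue, as was so for 7.42% of all miRNAs with higher homozygous values, and the CT samples lay between 30.5 and 45.4. FT4, FT3 and M4 were under detection for miR-674. The log2 fold change was 2.30 (SE 0.59, adjusted p = 0.033; exact permutation p = 0.01).

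miR-1196 was 149 and 117 in the homozygous FT samples against 15.7 to 28.1 in the heterozygous ones. In M the groups overlapped, with 778 in M1 and 110 in M3 against 70.3 to 208. For miR-351 FT2 (206) and M1 (131) stood out, while FT4 (17.9) and M3 (24.8) were under detection.

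The other 8 calls, like miR-351 (mean count 22.4), had low counts, the highest mean being 32.1 for miR-706. Of all 16, 7 had a mean count of at least 50 and 6 had one below 20. miR-450b-3p, miR-1897-3p, miR-1969 and miR-673-5p were under detection in all 4 homozygous samples. When every sample was set to at least its own detection level, 6 of the 16 (miR-351, miR-1224, miR-2140, miR-2134, miR-674 and miR-1196) differed by more than the detection level itself in both tissues. A further 6 did so in 1 tissue and 4 in neither. For miR-1224 these differences were 3.82 log2 in FT and 2.89 in M. Other excesses were small. In M the difference was 1.18 for miR-351 and 1.48 for miR-1196, beside 1.11 for the detection level. In FT it was 1.72 for miR-674, beside 1.48 for the detection level.

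**Figure D1:**
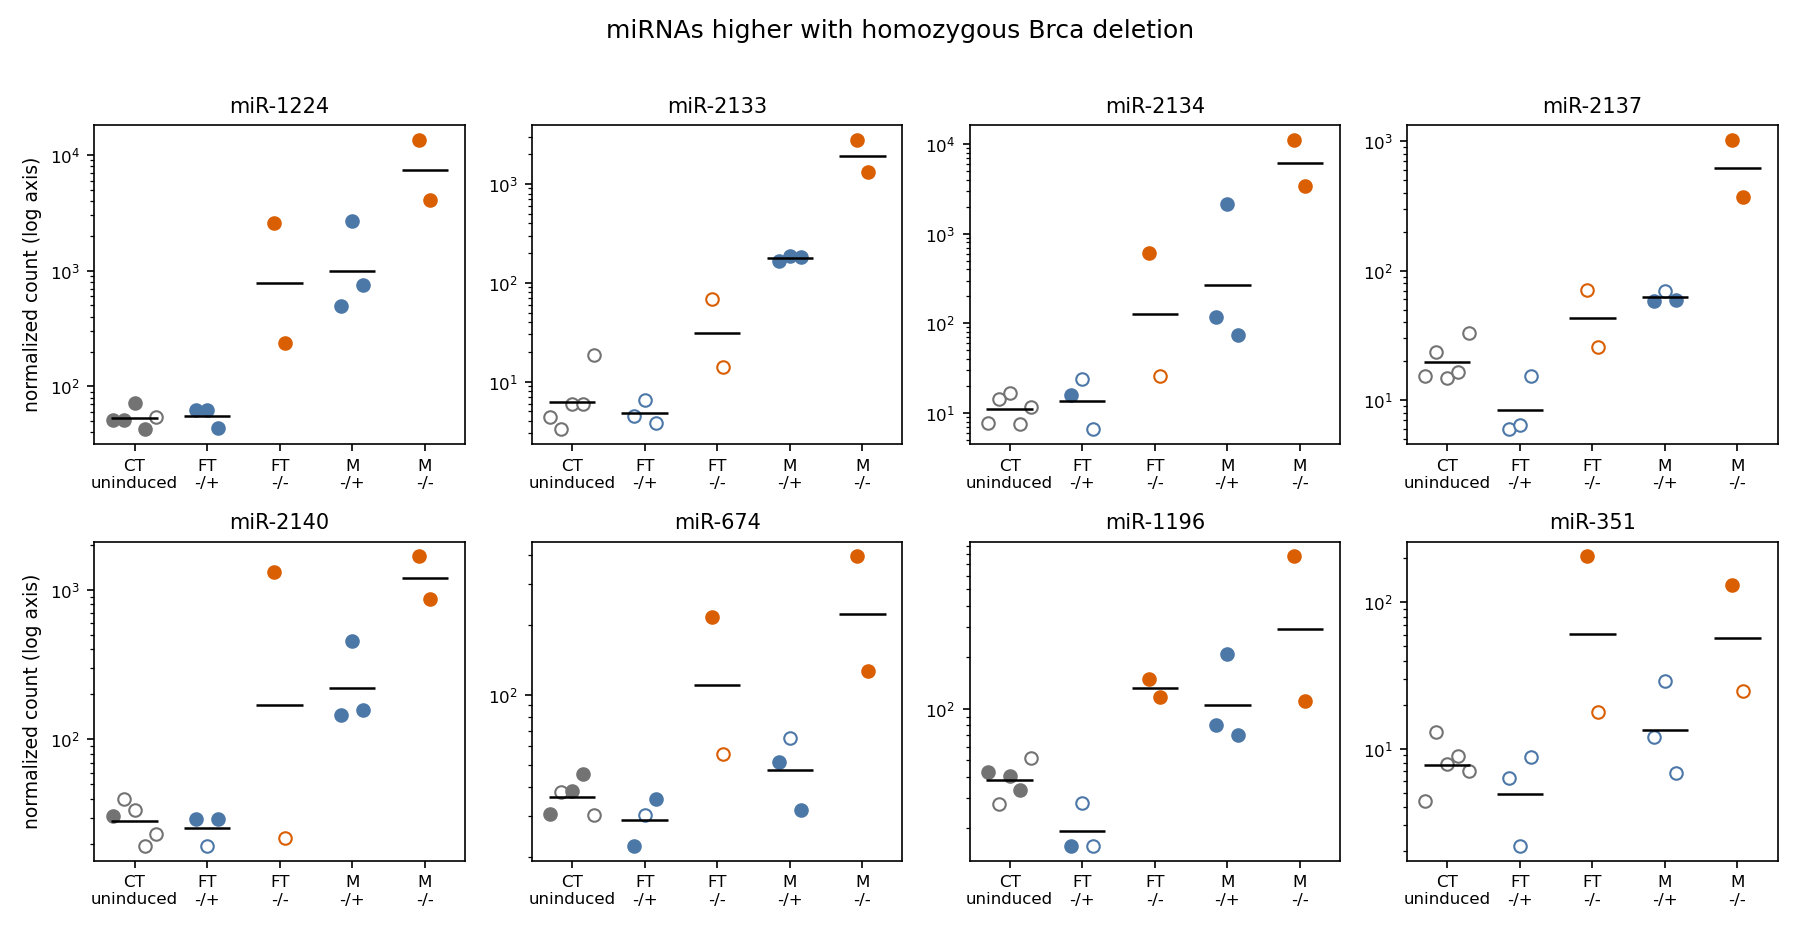
Normalized counts (log axis) of 8 miRNAs called higher with homozygous deletion, in CT (gray), heterozygous (-/+, blue) and homozygous (-/-, orange) FT and M samples. Each point is 1 sample, open where the count was not above detection, and the line is the geometric mean. M1 and M3 lie above all heterozygous M samples for miR-1224, miR-2133, miR-2134, miR-2137, miR-2140 and miR-674.

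The 16 calls depended on the scaling and on certain samples. Scaling to miR-425 gave 19 calls, all higher and 14 of them among the 16. TMM scaling, median-ratio scaling and quantile normalization each gave 0, with 69, 70 and 74 miRNAs at an unadjusted p below 0.05. With the scaling unchanged the count was 0 without FT1, 0 without FT2, 1 without M2, 1 without M6, 2 without FT5, 6 without M1, 10 without FT4, 22 without FT3, 23 without M3 and 125 without M4. miR-1224 stayed higher in all 29 alternatives reported, with log2 fold changes from 1.90 to 4.27 and adjusted p-values from 0.000774 to 0.993. DESeq2 gave no adjusted p-value for miR-1224 or miR-2134 and is not among the alternatives counted for them.

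In the Brca2 models alone the log2 fold change of miR-1224 was 1.90 (adjusted p = 0.993). Of the 16, 11 had a position in RefSeq and 3 of these (miR-351, miR-450b-3p and miR-2137) lay on the X chromosome, a share of 27.3% beside 17.3% for the 410 measured miRNAs with a position.

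**Figure D2:**
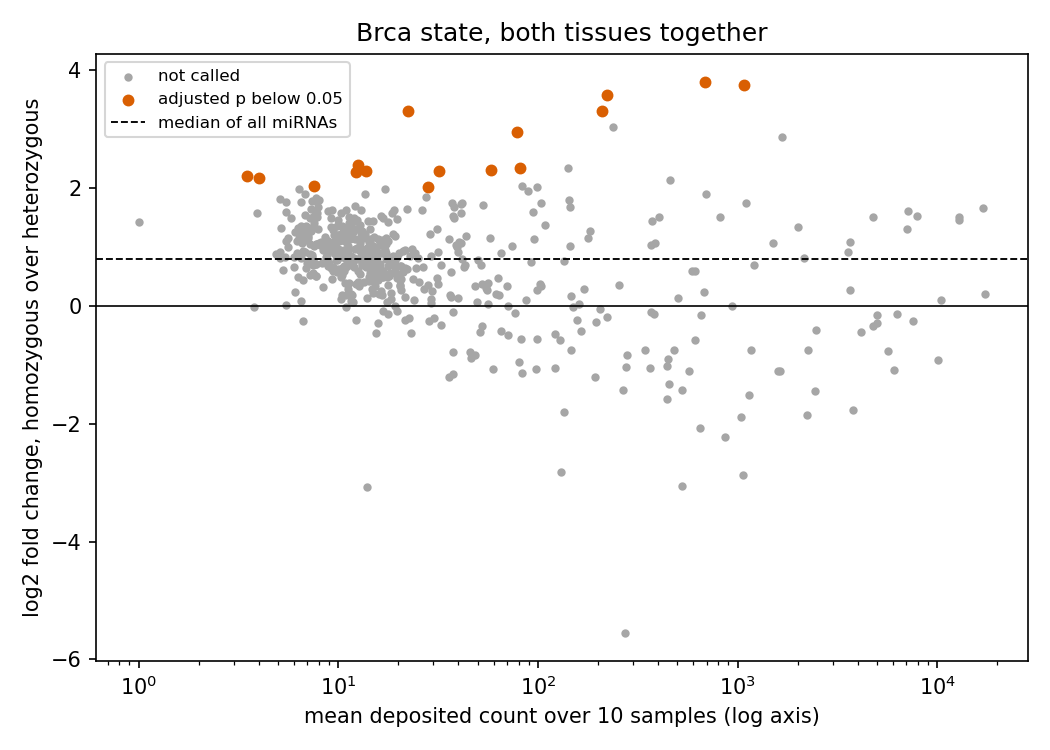
Log2 fold change of homozygous over heterozygous samples, both tissues together, against the mean deposited count over the 10 samples (log axis), for all 566 miRNAs. The 16 called miRNAs are orange, and the dashed line is the median of all miRNAs at 0.81, with most points of low count above 0.

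With both tissues in 1 fit, no list of miRNAs by function held a call apart from the group miR-2132 to miR-2141 and miR-720, with 4 of 13 higher and a median of 1.74 beside 0.81 for all miRNAs. In the list of miRNAs that target homologous recombination genes or the Brca genes, 0 of 13 were called and the median was 0.43. The let-7 family, which restrains growth-promoting genes, had 8 of 9 members above 0, a median of 1.30 and 0 calls. let-7b read 66309 in FT2 and 51463 in FT4 against 2805 to 14219 in heterozygous FT, yet in M the groups overlapped. The miR-17-92 and paralogous clusters had 0 of 11 called and a median of 0.74, and the Dlk1-Dio3 cluster 0 of 39 with a median of 0.70. None of the 8 marker lists had a call either, with medians of -1.42 for epithelium, -1.16 for liver, -0.74 for mesenchyme, -0.45 for ciliated epithelium, -0.44 for smooth muscle and stroma, -0.17 for erythrocytes, 0.66 for endothelium and 1.03 for leukocytes. With TMM scaling the medians turned to -0.52 for the recombination list, -0.18 for miR-17-92, -0.19 for Dlk1-Dio3 and -0.35 for endothelium, and shrank to 0.18 for let-7, beside 0.02 for all miRNAs. The miR-2132 to miR-2141 group stayed above 0 (1.06) and the epithelial list below it (-2.02).

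Lower values in homozygous samples did not reach the threshold with both tissues together. The smallest adjusted p was 0.085, for miR-122, the miRNA of hepatocytes. miR-24 and the miR-29 family came nearest to a pattern common to both tissues. miR-24 read 33.2 in FT2 and 63.6 in FT4 against 118, 114 and 194 in heterozygous FT, and 26.8 in M1 and 44.1 in M3 against 132, 60.4 and 251 in heterozygous M. The homozygous samples were the lowest in each tissue (log2 fold change -1.80, SE 0.64, adjusted p = 0.099; exact permutation p = 0.01), and only 1 of them was above detection.

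miR-29b fell from 679, 7806 and 1879 in FT1, FT3 and FT5 to 87.6 in FT2 and 274 in FT4. Within FT this was a log2 fold change of -4.25 (SE 1.26, adjusted p = 0.029). M1 (74.9) and M3 (154) overlapped with M2 (256), M4 (118) and M6 (752), and over both tissues the value was -2.87 (SE 0.98, adjusted p = 0.090). All CT samples were higher than every homozygous sample, at 1923 to 3959.

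miR-29c was 109 and 241 in the homozygous FT samples against 463, 4190 and 1395, and miR-29a 1781 and 1923 against 2265, 5681 and 3280. Neither was called within FT, with log2 fold changes of -3.53 (adjusted p = 0.063) and -1.02 (adjusted p = 0.56). miR-24, miR-29a and miR-29c were the 3 miRNAs whose homozygous samples were lowest in both tissues (0.53% of those measured), while 42 were highest in both (7.42%).

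Within FT, 21 miRNAs were called, 14 higher (2.47% of those tested) and 7 lower (1.24%), or 3.71% in all (edgeR, 4 group means fitted over the 10 samples). Lower were the miR-34b arms and miR-34c, miR-29b, miR-15b (of the miR-15/16 family, which restrains the cell cycle), miR-204 and miR-122. Higher were miR-351, miR-127, miR-2140, miR-1224, miR-672, miR-196b, miR-2134, miR-2132, miR-1949, miR-2141, miR-804, miR-532-5p, miR-1191 and miR-210, the last known as a target of the hypoxia response. Of the function lists the miR-2132 to miR-2141 group had 4 of 13 higher, the Dlk1-Dio3 cluster 1 of 39 higher (miR-127) and the let-7 family 0 of 9, with all 9 members above 0.

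The homozygous FT samples also read higher on probes outside the miRNAs. The summed normalized count of the housekeeping mRNA probes was 130849 in FT2 and 51636 in FT4, against 24636 in FT1, 1247 in FT3, 3557 in FT5 and 2199 to 8485 in CT. In M the groups overlapped, with 61333 in M1 and 39056 in M3 against 16335, 141207 and 25479. Over both tissues the exact permutation test of the Brca state gave p = 0.11 for this sum. Across the 141 miRNAs averaging 50 or more counts, FT2 correlated more closely with the tumor M4 (r = 0.887) than with FT4 (r = 0.804) or the heterozygous FT samples (r = 0.393 to 0.644). FT4 did not share this, since it correlated most closely with the heterozygous FT1 (r = 0.860). The part of these differences in the FT calls was not tested.

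The ciliated list had 3 of 6 members lower in FT, the miR-34b arms and miR-34c. miR-34b-5p read 28.4 in FT2 and 37.8 in FT4 against 98.1 in FT1, 681 in FT3 and 297 in FT5. miR-34b-3p was 19.0 and 21.9 against 65.6, 166 and 264. Both homozygous samples were under detection for both arms, while all 3 heterozygous samples and all 5 CT samples were above it. The log2 fold changes were -3.42 (SE 1.01, adjusted p = 0.029) and -3.01 (SE 0.94, adjusted p = 0.042). With samples held at their detection levels they were -1.91 and -0.98, although the detection level itself was 1.48 higher in homozygous FT.

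miR-34c had a count of 1, the lowest value in the table and under the negative controls, in FT2, FT4, all M samples and also CT2 and CT5. In CT2 and CT5 the miR-34b arms counted between 131 and 236. The size of the miR-34c change (log2 fold change -8.24, adjusted p = 2.9e-05) therefore cannot be read, and the same count of 1 makes it 1 of the 2 calls in CT. The summed normalized count of the 6 ciliated markers was 109 to 135 in homozygous FT, 402 to 1785 in heterozygous FT and 316 to 3773 in CT. This sum includes miR-34c, which alone read 888 in FT3, 1098 in FT5 and 2449 in CT1. All 6 were under detection in both homozygous FT samples. Of the 6, 2 were under detection in every heterozygous FT sample, and 2 in every CT sample. The miRNAs above detection numbered 111 in FT2 and 117 in FT4, against 197 in FT1, 129 in FT3 and 171 in FT5. In bulk tissue, fewer ciliated cells and less RNA per cell cannot be told apart.

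Of the other FT calls, miR-15b was 33.2 and 65.6 in homozygous against 1348, 341 and 773 in heterozygous samples, and miR-204 61.6 and 89.5 against 622, 1061 and 1171. For neither miRNA did the groups overlap, as was so for 5.83% of all miRNAs with lower and 33.4% with higher homozygous values in FT, and both homozygous samples were far under the CT samples, which read 247 to 779 for miR-15b and 997 to 2460 for miR-204. For miR-122 FT1 (18.5) was lower than both homozygous samples.

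Among the increases, miR-672 was 507 and 272 against 25.9 to 36.5, and miR-210 1732 and 374 against 42.5 to 170. miR-127 was 535 in FT2 but 35.8 in FT4, inside the 8.03 to 38.9 of heterozygous FT. The endothelial miRNA miR-126-3p read 54989 and 22324 against 2825 to 11847 with no call in FT. The summed mesenchymal markers overlapped, at 3080 to 4444 in homozygous and 3376 to 4340 in heterozygous FT.

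The FT calls numbered 2 with TMM scaling, miR-34b-3p and miR-34c, both lower. They numbered 1 without FT2, 4 without FT1, 2 without FT5 and 44 without M4.

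**Figure D3:**
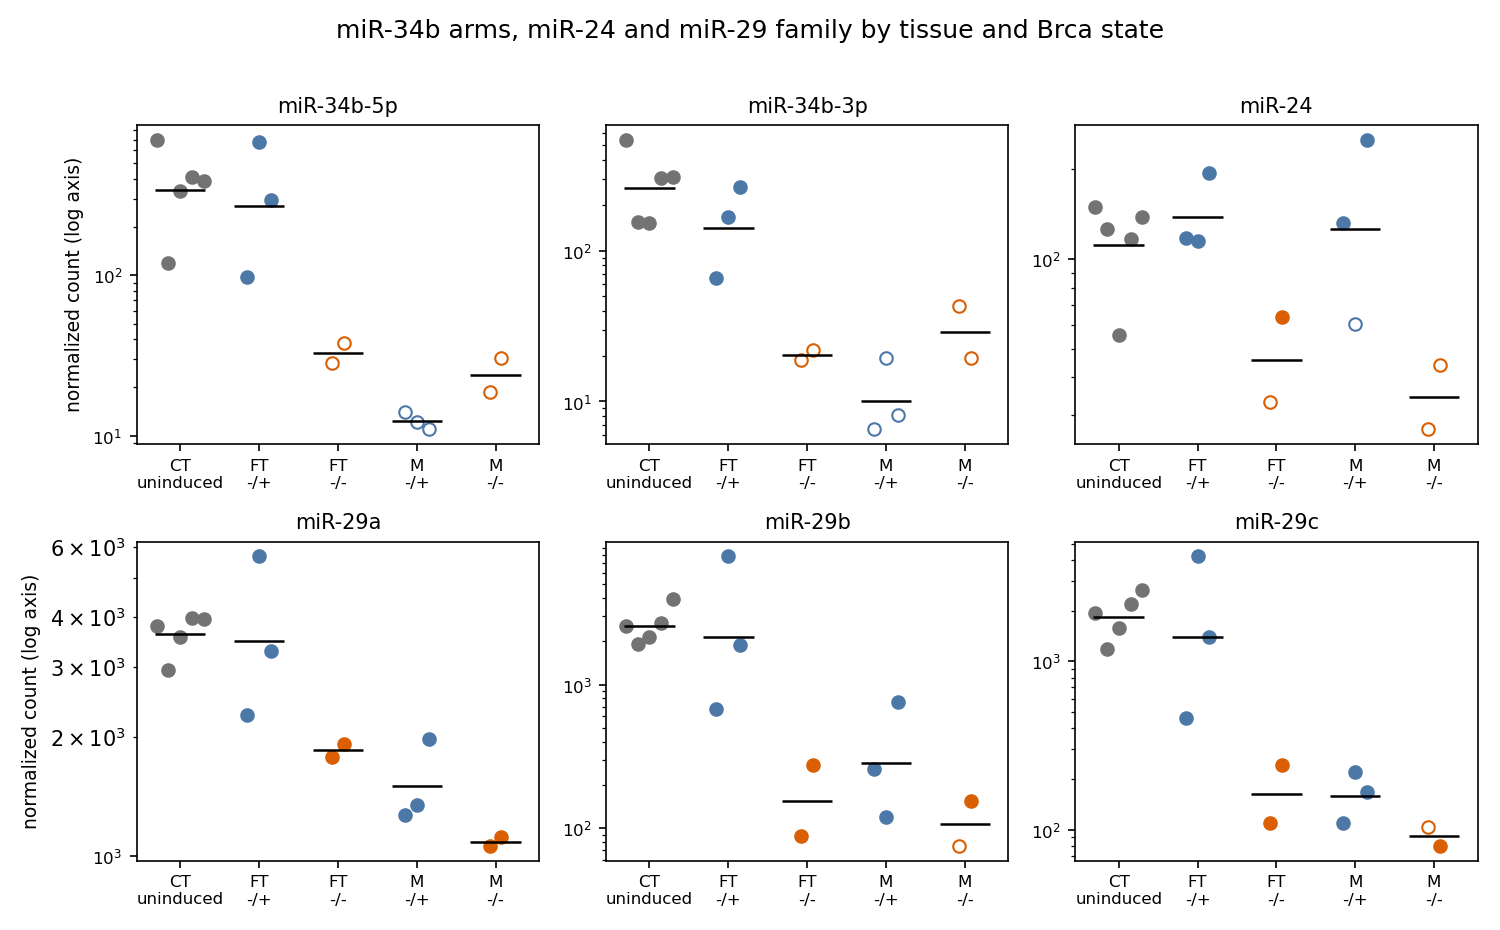
Normalized counts (log axis) of the miR-34b arms, miR-24 and the miR-29 family in CT (gray), heterozygous (-/+, blue) and homozygous (-/-, orange) FT and M samples. Each point is 1 sample (open points were not above detection) and lines are geometric means. The miR-34b arms were under detection in both homozygous FT samples and in all M samples, and within FT miR-24 and the miR-29 members were lowest in the homozygous samples.

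Within M, 15 miRNAs were called (2.65% of those tested), 6 higher (1.06%) and 9 lower (1.59%). The lower calls were mainly epithelial miRNAs, with 5 of the 7 on the epithelial list lower and a median of -4.91 over the list beside 0.60 for all miRNAs. The other lower calls were miR-375, miR-9, miR-196b and miR-382. The higher ones were miR-2137, miR-2133, miR-467c, miR-294, miR-184 and the shared probe of miR-466a-3p and miR-466b-3-3p. Outside the epithelial list, 2 of 13 of the miR-2132 to miR-2141 group were higher, and 1 of 39 of the Dlk1-Dio3 cluster (miR-382) and 1 of 13 of the recombination list (miR-9) were lower.

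miR-200c read 104 in M1 and 46.8 in M3 against 978 in M2, 18142 in M4 and 2708 in M6. The CT samples lay between 4073 and 4936. Both homozygous tumors were under detection for it, and the log2 fold change was -6.59 (SE 1.50, adjusted p = 0.0023).

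miR-200b was 353 and 124 against 825, 17226 and 3510, and it stayed above detection in both homozygous tumors (log2 fold change -4.91, SE 1.37, adjusted p = 0.025). miR-429 was 29.4 and 19.3 against 241, 5510 and 1255 (-6.57, SE 1.44, adjusted p = 0.0020). miR-200a was 26.8 and 33.1 against 165, 955 and 1224 (-4.70, SE 1.30, adjusted p = 0.024).

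miR-205, which is not of the family by its seed, was 42.8 in M1 and 27.6 in M3 against 1483 in M2, 300 in M4 and 13448 in M6 (log2 fold change -7.17, SE 1.49, adjusted p = 0.0013). For all 5 of these miRNAs the groups did not overlap within M, as was so for 3.71% of all miRNAs with lower and 22.6% with higher homozygous values. miR-141, which has the seed of miR-200a, was not called, and M2 (26.1) lay between M1 (32.1) and M3 (19.3). miR-203, the remaining member of the list, had a log2 fold change of -2.47 (adjusted p = 0.20).

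Held at detection levels, the log2 differences within M were -5.55 for miR-200c, -4.55 for miR-205, -4.14 for miR-200b, -3.93 for miR-429 and -2.90 for miR-200a, and the true differences may be larger, since levels under detection are not measured. The summed epithelial markers were 298 to 618 in homozygous M, 3773 to 42421 in heterozygous M and 9526 to 11295 in CT. Of the 7, 6 were under detection in both homozygous tumors, miR-200b being the exception. The summed mesenchymal markers were 2255 to 6111 in homozygous and 723 to 15584 in heterozygous M, and the leukocyte markers 2654 to 6301 and 967 to 2723. The part of other cells in the epithelial decrease was not tested.

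**Figure D4:**
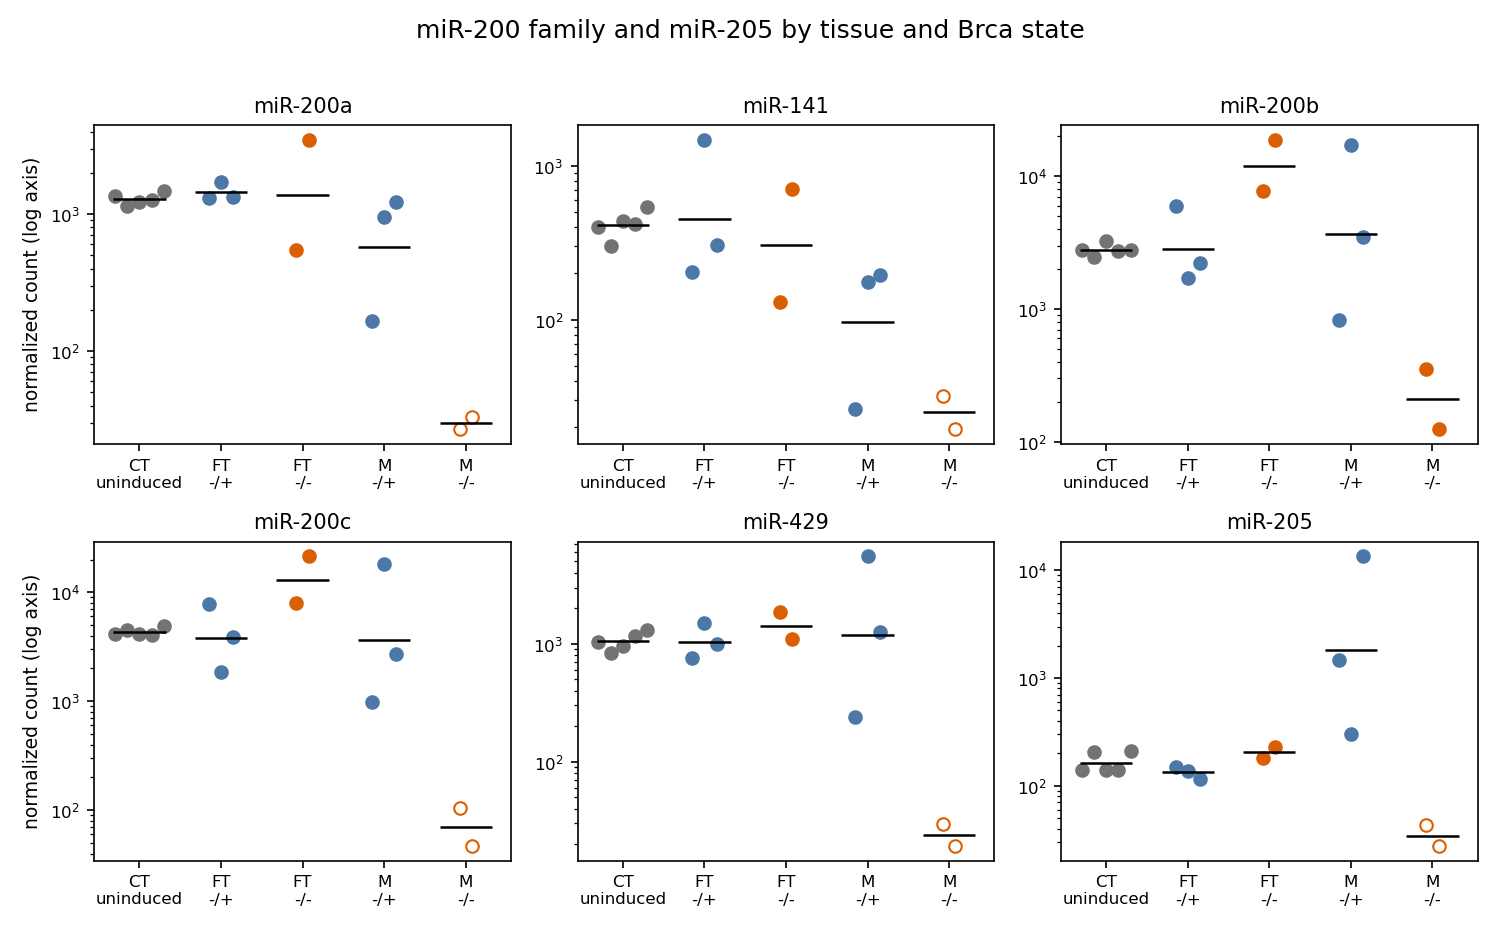
Normalized counts (log axis) of the miR-200 family and miR-205 in CT (gray), heterozygous (-/+, blue) and homozygous (-/-, orange) FT and M samples. Each point is 1 sample (open points were not above detection) and lines are geometric means. M1 and M3 lie below all other samples for miR-200a, miR-200b, miR-200c, miR-429 and miR-205.

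Some M calls rested on 1 tumor. miR-9 was 4425 in M4 and between 10.2 and 29.4 in the other M samples, and miR-375, an islet and secretory cell miRNA, was 4978 in M4 and 13.8 to 28.9 in the others. Without M4 their log2 fold changes were 1.01 and -0.27. miR-205, miR-429, miR-200c and miR-200a kept their calls without M4 (adjusted p = 1.3e-05, 0.0043, 0.010 and 0.0083). miR-200b did not (log2 fold change -3.18, adjusted p = 0.078).

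The M calls numbered 0 without M1 and 0 without M3, where 1 homozygous tumor remained and was assumed to vary like the other groups. They numbered 3 with TMM scaling and 0 with miR-425 scaling, while miR-200c kept log2 fold changes between -7.39 and -4.61 over the alternatives run.

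FT and M differed in the Brca contrast for 14 miRNAs, 2.47% of those tested (edgeR, difference of the within-tissue fold changes). The FT value was above the M value for 10 (1.77%; miR-196b, miR-200c, miR-205, miR-382, miR-9, miR-127, miR-429, miR-200b, miR-375 and miR-200a) and below it for 4 (0.707%; miR-34c, miR-34b-3p, miR-34b-5p and miR-218). All M samples were under detection for the miR-34b arms and miR-34c, so the M side of their differences was not measured. In FT no epithelial miRNA was called. There 6 of the 7 were above 0, with a median of 0.47 under the 0.93 of all miRNAs, and with TMM scaling the median was -0.52. miR-200c was 7919 in FT2 and 21362 in FT4 against 1848 to 7765 in heterozygous FT, a log2 fold change of 1.70 (adjusted p = 0.33). The difference between tissues for miR-200c was 8.29 (SE 1.79, adjusted p = 0.0013).

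miR-196b was the most marked, with 6931 in FT2 and 728 in FT4 against 456, 51.9 and 27.2 in heterozygous FT, and with 48.2 in M1 and 63.4 in M3 against 489, 3458 and 190 in heterozygous M. Homozygous samples were the highest in FT (log2 fold change 4.42, adjusted p = 0.0079) and the lowest in M (-4.62, adjusted p = 0.025), and the difference was 9.04 (SE 1.77, adjusted p = 0.00033). M1, FT3 and FT5 were under detection for miR-196b. Held at detection levels, its log2 differences were 4.70 in FT and -2.98 in M.

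miR-382 was 322 and 79.5 against 23.8 to 46.9 in FT, and 26.8 and 27.6 against 1032, 67.7 and 138 in M (difference 6.52, SE 1.45, adjusted p = 0.0013). Its groups were ordered oppositely in the 2 tissues without overlap, but M1, M3, M4 and FT3 were under detection. Held at detection levels, its log2 differences were 1.97 in FT, where the detection level itself differed by 1.48, and -1.68 in M. Groups without overlap were seen for 33.4% of all miRNAs with higher homozygous values in FT, and for 3.71% with lower ones in M. The share with both was not computed. The count of 14 became 0 without M1, 0 without M3 and 0 with TMM scaling.

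**Figure D5:**
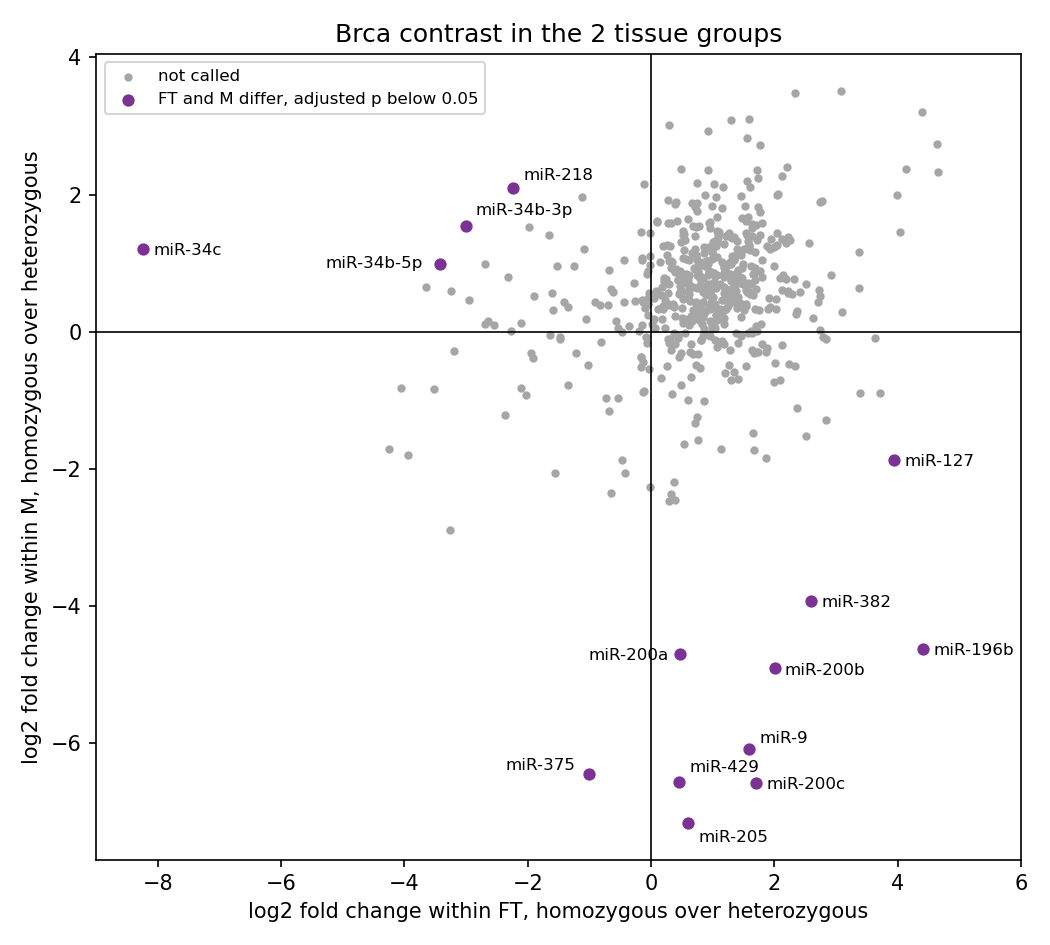
Log2 fold change of homozygous over heterozygous samples within FT (horizontal) and within M (vertical) for all 566 miRNAs. The 14 miRNAs whose values differ between FT and M (adjusted p below 0.05) are purple and named, with the epithelial miRNAs below 0 in M and the miR-34b arms and miR-34c below 0 in FT.

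Before induction the floxed alleles are intact, and CT samples with both Brca copies floxed differed from those with 1 in 2 miRNAs (0.353% of those tested), miR-34c and miR-669j. This background was not even, since the median log2 fold change was -0.58, at an unadjusted p below 0.05 3 miRNAs were higher and 105 lower, and without CT2 44 were called, 43 of them lower. With TMM scaling the unadjusted split was 23 and 17. miR-1224 had a log2 fold change of 0.07 in this comparison (adjusted p = 0.92), miR-200c -0.20 (adjusted p = 0.77) and miR-34b-3p 0.55 (adjusted p = 0.44). In plasma of induced mice, TS1 and TS3 (homozygous) against TS2 and TS4 (heterozygous), 1 miRNA was called (0.177%), miR-155, from a count of 61 in TS3 and 1 elsewhere. There miR-1224 had a log2 fold change of 0.99 (adjusted p = 0.71), and miR-34b-3p, with counts of 8 to 14, was under detection in all 4 samples.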

How the data were processed

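The deposited file holds NanoString nCounter counts for 626 probes in each sample, all whole numbers of at least 1. The authors made no background subtraction in their own normalization, and what else preceded deposit is not given in the sources used here. Of the probes, 566 mouse miRNAs were tested, and 8 negative controls set the detection level. Genotypes came from the study's sample table by sample name.

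The test was the quasi-likelihood test of edgeR 4.0.16 (R 4.3.3) on the counts, with Brca state and tissue (library sizes proportional to the geometric mean of the 100 most abundant tissue miRNAs, or 30 in plasma, Benjamini-Hochberg over 566, threshold 0.05). Fits within FT, within M and of their difference used 4 group means. Single miRNAs were tested with an exact permutation test of log2 normalized counts over 100 arrangements within tissues. The fits were tested on simulated data. Figures used Python and matplotlib.

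Alternatives were DESeq2 1.42.0, limma 3.58.1, other scalings, filters at mean counts of 20 and 50, covariates, subsets and each sample left out. Negative control subtraction, a detection floor and a filter on detection were chosen after seeing the data. Members and lists were chosen with earlier results of these data known. Named miRNAs were drawn mainly from those past the threshold in the comparison of both tissues, within FT, within M or in their difference. Others came from the 10 of smallest p in each direction over both tissues with a mean count of at least 50. Members of the function and marker lists were added. Not every miRNA of these sets is named. A further genotype that differed among the induced samples is not reported here. It cannot be told apart from Brca state within M, overlaps with it in FT, and runs nearly along the difference between FT and M, so those calls cannot be assigned to Brca state alone. The study had FT and M from the same mouse for 2 mice that its text does not name, so samples were treated as separate. Same-numbered FT and M samples differed in Brca state and so did not come from the same mouse. Their deviations correlated at -0.27 to -0.02 with tissue and Brca state removed. With tissue alone removed the values were -0.37, -0.29, 0.13 and 0.31 for numbers 1 to 4. These correlations cannot test a pairing by mouse. Few samples per group and counts near the negative controls limit the precision, and p-values measure the spread between single mice or tumors.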

Additional observations from a re-analysis of the deposited data

Results flagged for a closer look

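A test of single samples that stand apart within a group (gap to the nearest sample over the range, Dixon's critical value) was made on 108 groups of normalized counts and marked 9, and chance marks about 1 in 20. Among the homozygous samples, FT4 was low for miR-2140 (21.9, next 865), and M1 was high for miR-450b-3p (37.5, next 16.6), miR-706 (302, next 54.5) and miR-1196 (778, next 149). Among the heterozygous samples, M4 was high for miR-9 (4425, next 17.3) and FT5 low for miR-1897-3p (0.545, next 7.33), the last under detection. In CT, CT1 was low for miR-532-5p (15.3, next 26.7), and CT3 for miR-24 (55.4, next 117) and miR-15b (247, next 573).

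The Brca contrast differed between FT and M for 14 miRNAs (edgeR, adjusted p below 0.05). The FT log2 fold change exceeded the M value by 9.04 for miR-196b, 8.29 for miR-200c, 7.77 for miR-205, 7.67 for miR-9, 7.03 for miR-429, 6.92 for miR-200b, 6.52 for miR-382, 5.81 for miR-127, 5.45 for miR-375 and 5.17 for miR-200a. The difference was -9.46 for miR-34c, -4.55 for miR-34b-3p, -4.41 for miR-34b-5p and -4.32 for miR-218. For miR-34c and the miR-34b arms all M samples were under detection, so the M side was not measured.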

How the results depend on the processing

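The count of calls depended on the scaling, the test and the samples. For both tissues together (16 calls), TMM, median-ratio and quantile scaling, the methods' t-test and the Brca2 models alone gave 0. The common detection floor gave 1, the scaling to each sample's own 100 miRNAs 3, limma 3 (6 with trend and robust options), no tissue term 4, a mean count of at least 50 gave 5, detection in 4 samples 9, subtracted negative controls 10, miR-425 scaling 19, CT added to the fit 48 and DESeq2 63. Within FT (21 calls), TMM gave 2, the detection floor 2, limma 6, miR-425 scaling 9 and a mean count of at least 50 gave 9. Within M (15 calls), miR-425 scaling gave 0, the detection floor 2, TMM 3, the 5 M samples alone 3, a mean count of at least 50 gave 5 and limma 9. For the difference between FT and M (14 calls), TMM gave 0, the detection floor 2, miR-425 scaling 5 and limma 7. In CT (2 calls) TMM, limma and a mean count of at least 50 each gave 1, and in plasma (1 call) each gave 0. Of the 16 calls, all 16 had an exact permutation p of at most 0.05, and 10 did after quantile normalization. The 16 were picked by the same difference in the same counts, so the permutation test adds no independent support. miR-676 and miR-532-5p, which were not called, also had an exact permutation p of 0.01. Leaving out 1 sample gave 0 to 125 calls for both tissues together, 1 to 44 within FT, 0 to 19 within M, 0 to 15 for the difference, 1 to 44 in CT and 0 to 1 in plasma. Directions turned for miR-199a-3p (0.19 in Brca2 models alone), and, without 1 sample, for miR-2140 (-0.27 without FT2 to 5.63) and miR-2141 (-0.34 without FT2 to 5.19) within FT, miR-9 within M (-6.74 to 1.01 without M4) and the difference of miR-375 (-0.74 without M4 to 6.03). The cause was not tested. Depth limits all differences among miRNAs at or under the negative controls.

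With the sample number as a replicate block, 0 miRNAs were called in both tissues together and 17 had an unadjusted p below 0.05. Same-numbered FT and M samples differed in Brca state in every case, so they did not come from the same mouse. Neither this fit nor the correlations of same-numbered samples can therefore test a pairing by mouse. These correlations were -0.37 to 0.31 with tissue removed and -0.27 to -0.02 with Brca state removed too.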
